A study of Mus musculus with 15 samples.

Results

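The nuclear genes of respiratory complexes III, IV and V were followed through postnatal development in RNA held by ribosomes that were tagged in cerebellar Purkinje cells. The members are the 50 genes, of 19500 measured, whose symbol in the array annotation begins with Uqcr (8 genes, complex III), with Cox and a number (25 genes, complex IV) or with Atp5 (17 genes, complex V), with pseudogenes left out. Each gene is represented by its brightest probe set over all arrays that carries a single symbol. The rule reads symbols and not changes, but the list was chosen with earlier results of these data known. All mice carried the Tg(Pcp2-L10a-Egfp) transgene, in which the Purkinje cell promoter Pcp2 drives the ribosomal protein L10a fused to a green fluorescent protein. Tagged ribosomes were pulled from homogenates of pooled cerebella with antibodies against the fluorescent protein, a method called TRAP, and the RNA bound to them was hybridised to Affymetrix arrays. There were 3 arrays at each of 5 ages, P0, P7, P15, P21 and P56 (days after birth), of untreated mice whose labels differ by age alone. Input RNA of the whole cerebellum was not used here, and levels are therefore not enrichments over the tissue. With bulk RNA, a change in the share of a cell type, or of the tagged ribosomes, cannot be told apart from a change in the RNA per cell.

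The inner mitochondrial membrane holds the respiratory chain. Complex III passes electrons from ubiquinol to cytochrome c, complex IV passes them from cytochrome c to oxygen, and the proton gradient that this builds drives complex V, the ATP synthase. Complexes III to V are mosaics of a few mitochondrially encoded subunits, which are not analysed here, and many nuclear subunits, some of which are catalytic or face the matrix while others are small membrane proteins. Complex IV also has subunits that exist as alternative isoforms in heart, skeletal muscle, lung or testis, and it needs dedicated factors to insert its heme and copper. Purkinje cells fire spontaneously at high rates and depend on oxidative ATP supply.

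Values are log2 signals, and levels of different genes are not set against each other because each probe set has its own response. The median of an array lay between 7.77 and 7.93 from P0 to P21 and between 7.59 and 7.60 at P56. No scan date or batch is given, so a batch shared with an age cannot be told apart from that age. The labelled cells were checked by marker lists. The mean over 14 Purkinje cell markers lay between 9.82 and 9.84 on the P0 arrays, 12.42 and 12.44 at P7, 12.46 and 12.50 at P15, 12.37 and 12.45 at P21, and 12.60 and 12.66 at P56, and at P0 1 of the 14 was dimmer than the lower quartile of its age, later 0. Other cells were also read. The mean over 8 endothelial markers lay between 9.02 and 9.07 at P0, 6.85 and 6.94 at P7, and 6.30 and 6.48 at P56. The 8 microglial markers averaged 8.11 to 8.13 at P0 and 6.71 to 6.83 at P56. The 11 granule cell markers averaged between 8.60 and 8.62 at P0, 10.38 and 10.50 at P7, and 10.47 and 10.73 at P56. The 10 markers of astrocytes and Bergmann glia averaged between 10.11 and 10.14 at P0, 10.06 and 10.11 at P7, and 9.50 and 9.63 at P56, and at P7 against P0 3 were called higher and 6 lower. The 12 oligodendrocyte markers averaged between 8.32 and 8.45 at P0, 9.41 and 9.60 at P7, 10.14 and 10.39 at P21, and 9.09 and 9.13 at P56, with 8 called higher and 4 lower at P7 against P0. Of all probe sets, 33.6% were called higher and 28.5% lower at P7 against P0. These markers moved between the same ages as the respiratory genes, and their part in the results was not tested.

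Almost all of the respiratory genes were higher at P7 than at P0. Of the 50, 46 were called higher (limma, Benjamini-Hochberg adjusted p under 0.05 over all probe sets) and 0 lower, where 33.6% of all 22092 probe sets were called higher and 28.5% lower. Under quantile normalization 43 were called higher (33.5% of all probe sets), with Uqcrc1 (-0.03), Uqcrb (0.14) and Cox7b (0.09) losing their call. With the median of every array set to 0, 46 were higher and 0 lower (38.4% and 26.1% of all probe sets). The exceptions, with no call in the fit as deposited, were Atp5b, the catalytic beta subunit of the ATP synthase, and the isoform genes Cox7b2, Cox8b and Cox8c. The median log2 change was 1.58 over complex III, 0.90 over complex IV and 0.94 over complex V, beside 0.05 over all probe sets. A rise of at least 1, that is as much signal again, was called for 21 of the 50, against 10.5% of all probe sets. For 42 of the 50 genes, P0 was the age of the lowest mean. The moderated F-test over the ages called 49 of the 50, where it called 81.6% of all probe sets, and Cox8c, a testis isoform, was the exception (adjusted p 0.842). The 49 include Cox7b2, all of whose values lay below the lower quartile of their array.

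From P7 to P56 the genes moved in both directions, and lower calls were about as frequent among them as among all probe sets. Comparing P56 with P7, 18 of the 50 were called higher and 16 lower, where 25.4% of all probe sets were called higher and 34.2% lower. The median change was 0.11 over complex III, 0.06 over complex IV and -0.06 over complex V, beside 0.00 over all probe sets. Against P0, 40 were higher at P56 and 5 lower (40.1% and 35.3% of all probe sets), with median changes of 1.80, 0.86 and 0.99 for complexes III, IV and V. The 5 lower genes were Uqcrc1, Uqcrc2, Cox11, Atp5b and Atp5d. Cox7b2, all of whose values lay below the lower quartile of their array, is among the 18 and the 40. The split between higher and lower calls depends on how the P56 arrays are scaled. Their medians were lower, while their lower quartiles (5.96 to 5.99) and highest values (13.91 to 14.08) lay within or above the range of the other ages. With every array's median set to 0, the change of the median probe set was 0.27 between P56 and P7 and 0.41 between P56 and P0, 32 members were higher and 9 lower at P56 than at P7 (55.6% and 21.8% of all probe sets), and 46 were higher and 3 lower at P56 than at P0 (61.7% and 26.3%). Under that scaling the median change of complex V between P56 and P7 was 0.21, of the opposite sign.

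**Figure D1:**
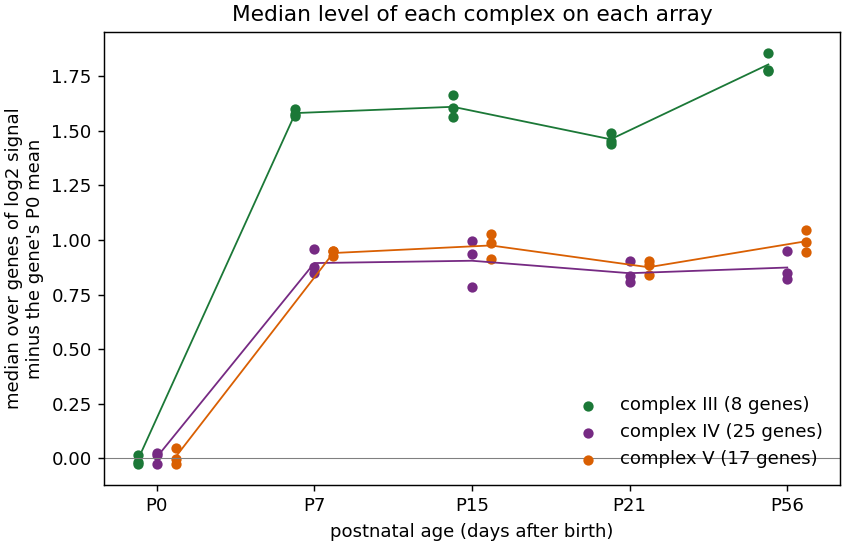
Median log2 change from the P0 mean over the genes of complex III (8), complex IV (25) and complex V (17), by age, with each array as a point. The P7 arrays lie at 1.57 to 1.60 for complex III, 0.85 to 0.96 for complex IV and 0.93 to 0.95 for complex V, and the later ages stay near these values, with 1.77 to 1.86, 0.82 to 0.95 and 0.94 to 1.05 at P56.

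The intermediate steps were small. Between P7 and P15, 10 members were called higher at P15 and 4 lower (10.4% and 13.6% of all probe sets), and the largest rise was that of Cox7a1. Between P15 and P21, 1 member was higher at P21 and 7 were lower (10.5% and 7.16% of all probe sets), and leaving out single arrays moved these counts to between 0 and 2 higher and between 3 and 8 lower. The single rise at P21 was that of Cox14. With array medians set to 0, the counts were 20 higher and 3 lower at P15 against P7 (16.2% and 9.86%), and 0 higher and 11 lower at P21 against P15 (8.53% and 10.1%). Between P21 and P56 the genes moved again, with 21 higher and 17 lower at P56 (22.1% and 34.3% of all probe sets), or 31 and 10 with array medians set to 0 (49.9% and 22.3%). Both higher counts include the dim Cox7b2. Of the 50 genes, 11 had their highest mean at P7, 14 at P15, 5 at P21 and 20 at P56.

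**Figure D2:**
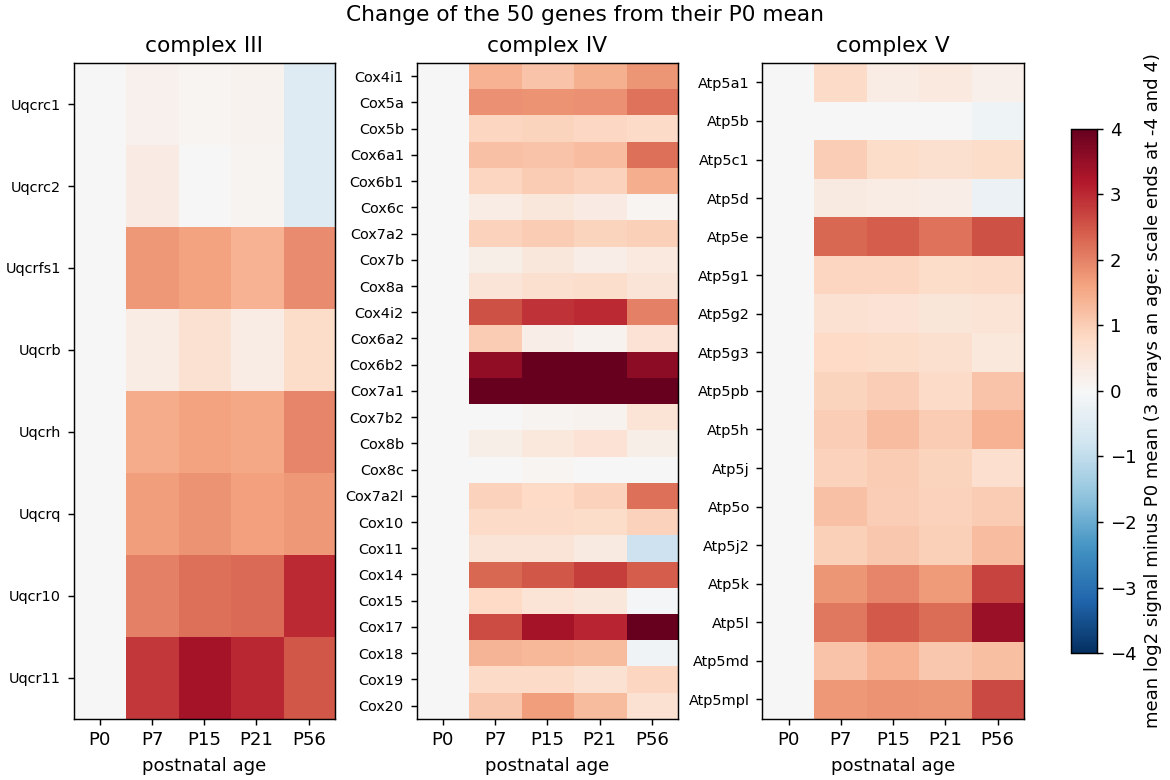
Log2 change of the age mean from P0 for each of the 50 genes, ordered by complex and role, with a colour scale in log2 units that is capped at both ends. Nearly every row gains signal by P7, and the columns of P56 differ between rows, with Cox17 at 6.04 and Cox11 at -0.83.

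Complex III held both directions within 8 genes. Its 2 core proteins on the matrix side, Uqcrc1 and Uqcrc2, were lower in the adult than at every earlier age. Uqcrc1 read 12.23, 12.15 and 12.18 at P0, 12.37, 12.34 and 12.35 at P7, 12.26, 12.27 and 12.28 at P15, 12.27, 12.29 and 12.44 at P21, and 11.81, 11.61 and 11.61 at P56. All 3 P56 arrays lay below every array of the other ages, and the change between P56 and P0 was -0.51 (SE 0.07, adjusted p 3.09e-06). Uqcrc2 read 12.49, 12.48 and 12.45 at P0, 12.83, 12.81 and 12.79 at P7, 12.54, 12.53 and 12.43 at P15, 12.58, 12.57 and 12.61 at P21, and 11.96, 11.90 and 11.97 at P56. It was highest at P7, and its change between P56 and P7 was -0.87 (SE 0.06, adjusted p 1.02e-09). The third core member, the Rieske iron-sulphur protein Uqcrfs1, went the other way, with a mean of 10.89 ± 0.01 at P56 and 9.01 ± 0.15 at P0 (SD, n = 3) and a change of 1.88 (SE 0.08, adjusted p 2.71e-13).

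The 5 small subunits of complex III were all called higher at P7 and at P56 than at P0 (33.6% and 40.1% of all probe sets). Uqcr10, a small membrane subunit, read 9.54, 9.65 and 9.79 at P0, 11.68, 11.67 and 11.64 at P7, 11.94, 11.94 and 11.69 at P15, 11.92, 12.01 and 11.80 at P21, and 12.68, 12.67 and 12.54 at P56. Its P56 arrays lay above all others, with a change between P56 and P0 of 2.97 (SE 0.08, adjusted p 2.76e-15). Uqcr11, another small subunit, read 9.63, 9.58 and 9.63 at P0, 12.43, 12.42 and 12.44 at P7, 12.88, 12.91 and 12.99 at P15, 12.61, 12.64 and 12.68 at P21, and 12.22, 12.09 and 11.97 at P56. It was highest at P15 and lower in each P56 array than in any array from P7 to P21, with a change between P56 and P21 of -0.55 (SE 0.07, adjusted p 2.21e-06). The lower value at P56 than at P7 (-0.34) was not called with array medians set to 0, where it was -0.07. Uqcrh, the hinge protein between the complex and cytochrome c, read 11.34, 11.21 and 11.20 at P0, 12.73, 12.77 and 12.72 at P7, 12.87, 12.85 and 12.86 at P15, 12.80, 12.75 and 12.87 at P21, and 13.25, 13.19 and 13.15 at P56. Its change between P56 and P0 was 1.95 (SE 0.06, adjusted p 1.17e-14). Uqcrb, which lies at the ubiquinone site, read 12.57, 12.70 and 12.47 at P0, 13.01, 12.88 and 12.79 at P7, 13.26, 13.14 and 13.14 at P15, 13.01, 12.66 and 12.95 at P21, and 13.33, 13.29 and 13.33 at P56. It had the smallest change of the 5, 0.74 (SE 0.09, adjusted p 9.35e-07), and its other 2 probe sets gave 0.71 and 0.81. Uqcrq, a membrane subunit, made its change by P7 (1.67) and was within 0.06 of that level at P56 in the deposited scaling. With array medians set to 0, it was called higher at P56 than at P7, by 0.32.

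In complex IV, the 9 generally expressed subunits were all called higher at P7 than at P0, by 0.23 (Cox7b) to 1.85 (Cox5a, a matrix-side subunit). At P56, 8 of the 9 were called higher than at P0, and Cox6c had a change of 0.07 (SE 0.06, adjusted p 0.314). Of all probe sets, 33.6% were called higher at P7 than at P0 and 40.1% at P56 than at P0. Between P56 and P7, Cox4i1, Cox5a, Cox6a1 and Cox6b1 were called higher and Cox6c lower (25.4% and 34.2% of all probe sets). Cox5b, Cox7a2, Cox7b and Cox8a had no call. With array medians set to 0, 8 of the 9 were called higher and 0 lower (55.6% and 21.8% of all probe sets). Cox5b was then at 0.18, Cox7a2 at 0.30, Cox7b at 0.42, Cox8a at 0.25 and Cox6c, not called, at 0.05. Cox6c lay within 0.2 of the highest value of the array on 6 of 15 arrays, and saturation is not recorded. Cox6a1, the general isoform of the Cox6a subunit, read 11.34, 11.23 and 11.22 at P0, 12.46, 12.43 and 12.37 at P7, 12.50, 12.49 and 12.20 at P15, 12.52, 12.42 and 12.54 at P21, and 13.44, 13.51 and 13.46 at P56. Its arrays from P7 to P21 overlapped, and the P56 arrays lay above all of them, with a change between P56 and P21 of 0.98 (SE 0.08, adjusted p 1.35e-08). Cox4i1, the general isoform of the Cox4 subunit, read 10.83, 10.71 and 10.61 at P0, 12.13, 12.11 and 12.11 at P7, 11.97, 11.97 and 11.62 at P15, 12.06, 12.08 and 12.24 at P21, and 12.61, 12.38 and 12.44 at P56. The P56 arrays were again the highest (0.35 (SE 0.10, adjusted p 0.00508) against P21). Cox6b1, the general isoform of Cox6b on the side facing cytochrome c, read 12.18, 12.17 and 12.13 at P0, 13.02, 12.99 and 13.01 at P7, 13.24, 13.21 and 13.12 at P15, 13.11, 12.99 and 13.11 at P21, and 13.64, 13.61 and 13.54 at P56. It was highest at P56 too, with a change of 0.53 (SE 0.06, adjusted p 1.19e-06) against P21. Cox6b1 lay 0.31 to 1.83 below the highest value of the array, and saturation is not recorded, so the size of its changes is uncertain.

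Cox7a2, Cox7b and Cox8a, the general isoforms of 3 small membrane subunits, had no call between P56 and P7 in the deposited scaling. Cox7a2 read 11.46, 11.46 and 11.38 at P0, 12.40, 12.34 and 12.27 at P7, 12.50, 12.48 and 12.30 at P15, 12.47, 12.20 and 12.32 at P21, and 12.38, 12.38 and 12.34 at P56. Its arrays overlapped from P7 to P56. Cox7b read 12.74, 13.03 and 12.91 at P0, 13.20, 13.07 and 13.11 at P7, 13.38, 13.32 and 13.32 at P15, 13.25, 13.02 and 13.19 at P21, and 13.33, 13.27 and 13.25 at P56, and its other probe set had a change between P56 and P0 of 0.89 beside 0.39 for the one used. Cox8a read 12.50, 12.48 and 12.39 at P0, 12.98, 12.94 and 13.00 at P7, 13.09, 13.07 and 13.12 at P15, 13.14, 13.16 and 13.21 at P21, and 13.01, 12.96 and 12.91 at P56. Its P56 arrays overlapped those of P7 and lay below those of P21, with a change of -0.21 (SE 0.06, adjusted p 0.00644) against P21 that was not called with array medians set to 0 (0.03). Cox5b, the subunit with a zinc site, was 13.05 ± 0.09 at P56 and 12.28 ± 0.02 at P0 (SD, n = 3).

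Of the 7 genes known from other tissues for isoforms of complex IV subunits, 4 were called higher at P7 than at P0 (33.6% of all probe sets), and 3 of these by more than any general subunit of complex IV. Cox7a1, the heart and skeletal muscle isoform of Cox7a, read 6.66, 6.84 and 7.02 at P0, 10.91, 10.97 and 10.98 at P7, 12.09, 12.05 and 12.05 at P15, 11.40, 11.39 and 11.27 at P21, and 11.45, 11.61 and 11.41 at P56. The P0 arrays lay well below those of any later age, the P15 arrays were the highest, and the changes were 4.11 (SE 0.08, adjusted p 1.08e-16) between P7 and P0, 1.11 (SE 0.08, adjusted p 6.57e-08) between P15 and P7 and 4.65 (SE 0.08, adjusted p 1.27e-17) between P56 and P0. A rise of at least 1 between P7 and P15 was called for 16 of all 22092 probe sets (0.0724%), and Cox7a1 was the single member among them. Cox6b2, the testis isoform of Cox6b, read 7.18, 7.0 and 7.29 at P0, 10.66, 10.76 and 10.75 at P7, 11.23, 11.31 and 11.22 at P15, 11.41, 11.48 and 11.17 at P21, and 10.73, 10.82 and 10.71 at P56. It peaked at P15 and P21, and its P56 arrays overlapped those of P7. The change between P7 and P0 was 3.56 (SE 0.09, adjusted p 9.41e-16). Cox4i2, the lung isoform of Cox4, read 7.89, 7.90 and 7.66 at P0, 10.29, 10.39 and 10.40 at P7, 10.63, 10.69 and 10.79 at P15, 10.81, 10.79 and 10.78 at P21, and 9.88, 9.88 and 9.69 at P56. It was highest at P15 and P21 and lower at P56, with changes of 2.54 (SE 0.08, adjusted p 1.5e-14) between P7 and P0 and -0.98 (SE 0.08, adjusted p 1.42e-08) between P56 and P21.

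The other 4 isoform genes changed less or lay low. Cox6a2, the heart and muscle isoform of Cox6a, read 7.53, 7.46 and 7.68 at P0, 8.65, 8.57 and 8.42 at P7, 7.60, 7.88 and 7.92 at P15, 7.55, 7.93 and 7.59 at P21, and 8.36, 7.96 and 8.07 at P56. It was highest at P7, with a change of 0.99 (SE 0.12, adjusted p 9.78e-07) against P0 and of -0.75 (SE 0.12, adjusted p 0.000226) between P15 and P7. The P56 arrays lay below those of P7, but the call (-0.42) was lost with array medians set to 0 (-0.15) and under quantile normalization (-0.10). Cox8b, the muscle isoform of Cox8, read 6.11, 5.83 and 6.02 at P0, 6.13, 6.36 and 6.13 at P7, 6.42, 6.44 and 6.40 at P15, 6.60, 6.53 and 6.61 at P21, and 5.87, 6.69 and 6.09 at P56. There, 1 P0 array and 1 P56 array were below the lower quartile of their array, the P56 arrays spread widely, and the change between P56 and P0 was 0.23 (SE 0.14, adjusted p 0.157), or 0.40 (adjusted p 0.0121) without the first P56 array, -0.01 (adjusted p 0.951) without the second and 0.55 (adjusted p 0.00158) with array medians set to 0. Cox7b2, a testis isoform, read 4.65, 4.55 and 4.54 at P0, 4.55, 4.57 and 4.62 at P7, 4.64, 4.75 and 4.71 at P15, 4.75, 4.80 and 4.65 at P21, and 4.94, 5.00 and 5.45 at P56. All 15 of these values lay below the lower quartile of their array, so they are not shown to be above background, and neither a change nor a call of this probe set is read as a change of the gene. Cox8c, likewise known from testis, averaged 6.15 ± 0.15 at P56 and 6.12 ± 0.12 at P0 (SD, n = 3).

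Muscle tissue was checked beside these isoforms. The mean over 12 heart and skeletal muscle markers lay between 6.36 and 6.43 on the P0 arrays, 6.52 and 6.53 at P7, 6.49 and 6.59 at P15, 6.52 and 6.66 at P21, and 6.68 and 6.74 at P56. Between P7 and P0, 2 of the 12 were called higher and 0 lower (33.6% and 28.5% of all probe sets), with a median change of 0.09 and a largest change of 0.62. Of the 12, 4 were dimmer than the lower quartile (5.86 to 6.01 over the arrays) at P0 and 1 at each later age. The part of muscle tissue in the isoform changes was not tested, and no list of testis or lung markers was run.

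**Figure D3:**
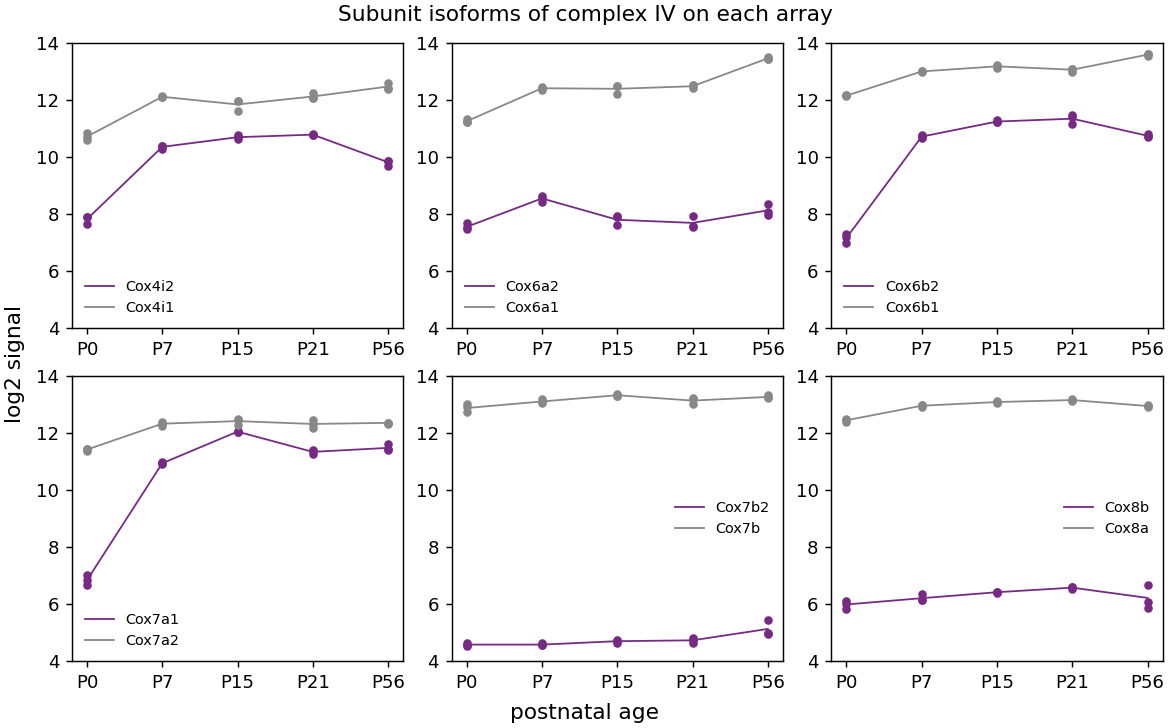
Log2 signal by age of each complex IV isoform with its general counterpart, with the arrays as points and a line through the age means. Cox7a1, Cox6b2 and Cox4i2 climb steeply between P0 and P7 (4.11, 3.56 and 2.54) where Cox7a2, Cox6b1 and Cox4i1 climb by 0.90, 0.85 and 1.40, and levels are comparable over ages within a gene, not between genes.

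Upstream sequences are shown for the Cox7a and Cox6b pairs, whose 2 genes encode the same subunit with different time courses, and for Cox6a1, a general subunit with its rise at P56. Each window is the 150 bases before the RefSeq start of the gene on GRCm38.p6, 5′ to 3′ on the strand of the gene, in lower case. Capitals mark matches on either strand to motifs searched by their letters, here NRF1 (GCGCA, any base, then GCGC) and the ETS motif bound by GABP (CCGGAAG, or CTTCCGG on the other strand), both factors being known regulators of respiratory genes. Cox7a1 lies at chr7:30184021-30184170, plus strand, and Cox7a2 at chr9:79759854-79760003, minus strand.
Cox7a1: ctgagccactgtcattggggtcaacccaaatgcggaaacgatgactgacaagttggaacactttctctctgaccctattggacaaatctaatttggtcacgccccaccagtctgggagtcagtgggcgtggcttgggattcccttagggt
Cox7a2: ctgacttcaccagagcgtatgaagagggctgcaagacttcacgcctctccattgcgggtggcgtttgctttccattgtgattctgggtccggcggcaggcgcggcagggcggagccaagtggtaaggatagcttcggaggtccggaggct
Cox6b2 lies at chr7:4753095-4753244, minus strand, Cox6b1 at chr7:30626115-30626264, minus strand and Cox6a1 at chr5:115348959-115349108, minus strand.
Cox6b2: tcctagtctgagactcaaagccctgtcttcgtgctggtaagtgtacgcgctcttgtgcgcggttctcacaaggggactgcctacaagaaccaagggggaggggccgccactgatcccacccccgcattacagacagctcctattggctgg
Cox6b1: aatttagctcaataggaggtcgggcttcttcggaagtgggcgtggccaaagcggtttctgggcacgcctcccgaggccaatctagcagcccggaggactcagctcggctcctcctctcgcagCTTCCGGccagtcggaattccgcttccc
Cox6a1: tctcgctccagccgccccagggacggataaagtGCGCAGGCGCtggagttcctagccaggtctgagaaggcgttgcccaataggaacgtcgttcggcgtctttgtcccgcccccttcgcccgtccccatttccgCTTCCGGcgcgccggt
Neither Cox7a window, nor that of Cox6b2, held one of the 6 motifs searched. The window of Cox6b1 held 1 ETS match near its end, and that of Cox6a1 held an NRF1 and an ETS match.

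For the isoform pairs, the change of the general gene minus that of its counterpart was compared between ages by permuting the 3 and 3 arrays in an exact two-sided test, whose smallest possible p is 0.1. In all, 9 pairs were compared for each of 2 contrasts, with Benjamini-Hochberg adjustment over the 9. Between P56 and P0 the difference was -3.71 for Cox7a2 minus Cox7a1, -2.16 for Cox6b1 minus Cox6b2, -0.24 for Cox4i1 minus Cox4i2 and 1.63 for Cox6a1 minus Cox6a2, each at the smallest p of 0.1 (adjusted 0.129, permutation test). Cox8a minus Cox8b (0.28) had an exact p of 0.4, and the pair of Cox7b with Cox7b2 is not read because Cox7b2 is not shown to be above background. Between P56 and P7 the difference was 0.90 for Cox4i1 minus Cox4i2, 1.46 for Cox6a1 minus Cox6a2, 0.56 for Cox6b1 minus Cox6b2 and -0.50 for Cox7a2 minus Cox7a1, each again at an exact p of 0.1 (adjusted 0.129). Cox8a minus Cox8b was -0.02 (exact p 0.8).

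The 9 factors that build complex IV were all called higher at P7 than at P0 (33.6% of all probe sets). They moved apart between P21 and P56, when 4 were called higher and 5 lower (22.1% and 34.3% of all probe sets). With array medians set to 0, 4 were higher and 4 lower (49.9% and 22.3%). Cox17, a copper chaperone of the intermembrane space that hands copper on for both copper sites of the enzyme, read 6.20, 5.80 and 6.15 at P0, 8.78, 8.71 and 8.52 at P7, 9.40, 9.34 and 9.36 at P15, 9.19, 9.11 and 9.01 at P21, and 12.07, 12.18 and 12.02 at P56. No 2 ages overlapped, and the P56 arrays stood far above the rest. Its changes were 2.62 (SE 0.10, adjusted p 1.56e-13) between P7 and P0, 2.99 (SE 0.10, adjusted p 7.74e-13) between P56 and P21, and 6.04 (SE 0.10, adjusted p 3.75e-18) between P56 and P0, the largest of the 50 genes. As 1 of the 3 P0 arrays lay below its lower quartile, the size of the change from P0 is uncertain, whereas the change from P21 starts well above it. A rise of at least 1 between P21 and P56 was called for 1.95% of all probe sets and for 3 of the 50 members, Cox17, Cox7a2l and Atp5l.

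Cox7a2l, a factor known to join complexes III and IV into supercomplexes, was flat between P7 and P21 and higher at P56, with means of 8.94 ± 0.04 at P0, 9.86 ± 0.04 at P7, 9.85 ± 0.08 at P21 and 11.15 ± 0.05 at P56 (SD, n = 3). Its change between P56 and P21 was 1.30 (SE 0.06, adjusted p 3.12e-11), and its other probe set gave 2.82. Cox11, which delivers copper to the catalytic subunit, read 10.73, 10.81 and 10.90 at P0, 11.39, 11.36 and 11.26 at P7, 11.33, 11.29 and 11.42 at P15, 11.21, 11.16 and 11.16 at P21, and 9.89, 10.11 and 9.95 at P56. The P56 arrays lay below those of every other age, with changes of -1.19 (SE 0.07, adjusted p 4.31e-10) against P21 and -0.83 (SE 0.07, adjusted p 1.01e-08) against P0. Cox18, which inserts a core subunit into the membrane, read 10.62, 10.78 and 10.89 at P0, 12.09, 12.09 and 12.14 at P7, 12.10, 12.15 and 12.02 at P15, 12.01, 11.99 and 12.03 at P21, and 10.49, 10.81 and 10.57 at P56. Here P56 fell below all arrays from P7 to P21 (-1.39 (SE 0.08, adjusted p 4.31e-10) against P21), to a level that overlapped P0.

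The enzymes that make the heme of the catalytic subunit differed from each other. Cox15, the heme A synthase, read 9.42, 9.27 and 9.20 at P0, 10.06, 10.10 and 10.13 at P7, 9.93, 9.90 and 9.72 at P15, 9.79, 9.79 and 9.68 at P21, and 9.03, 9.42 and 9.27 at P56. Its change was -0.52 (SE 0.09, adjusted p 0.000132) between P56 and P21, and its P56 arrays overlapped those of P0. Cox10, the heme O synthase that acts just before Cox15, was 10.29 ± 0.16 at P56 and 10.10 ± 0.06 at P21 (SD, n = 3), with a change of 0.19 (SE 0.08, adjusted p 0.0432). Cox20, a chaperone of a newly made core subunit, changed by -0.66 (SE 0.09, adjusted p 8.67e-06) between P56 and P21, and Cox14, which acts early in assembly, by -0.34 (SE 0.08, adjusted p 0.00215). The change of Cox14 was not called with array medians set to 0 (-0.11). Cox19, a protein of copper handling, rose by 0.26 (SE 0.08, adjusted p 0.00822). Setting array medians to 0 left Cox11, Cox15, Cox18 and Cox20 called lower at P56 than at P21.

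**Figure D4:**
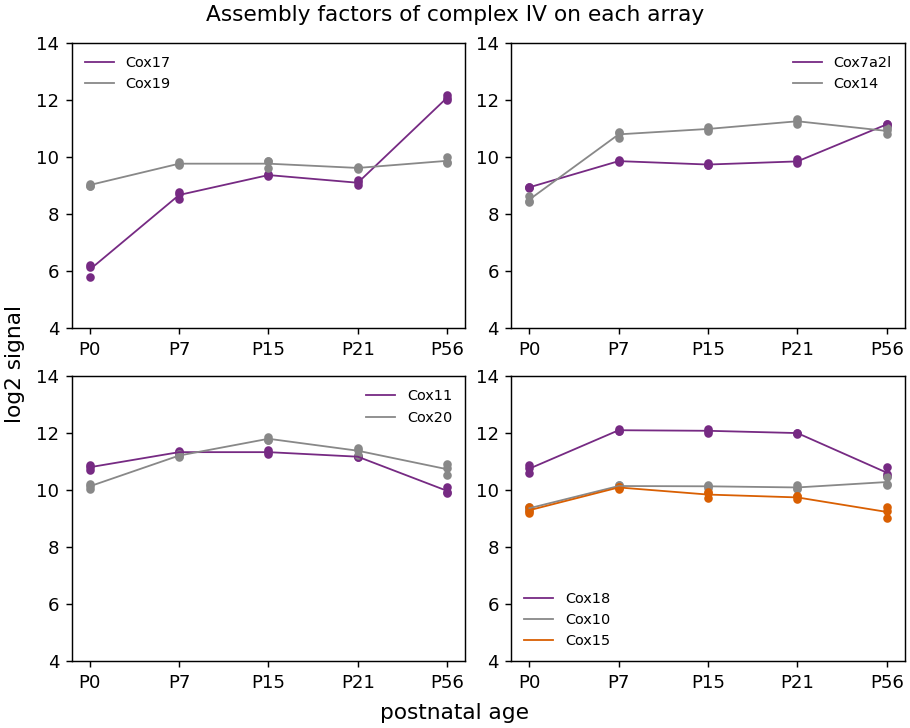
Log2 signal by age of the 9 complex IV assembly genes, with arrays as points and a line through the age means. Cox17 lies at 12.02 to 12.18 at P56, against 9.01 to 9.19 at P21, Cox7a2l also steps up, and Cox11, Cox15, Cox18 and Cox20 step down.

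In complex V, the 5 subunits of the catalytic head did not move together. Atp5a1 and Atp5b, the alpha and beta subunits that form the catalytic sites, and Atp5d, the delta subunit, were lower at P56 than at P7. Atp5a1 read 12.30, 12.33 and 12.28 at P0, 13.09, 13.05 and 13.04 at P7, 12.66, 12.67 and 12.49 at P15, 12.69, 12.67 and 12.73 at P21, and 12.51, 12.34 and 12.62 at P56. It was highest at P7, with changes of 0.76 (SE 0.07, adjusted p 6.38e-08) between P7 and P0 and -0.57 (SE 0.07, adjusted p 3.66e-06) between P56 and P7. Atp5b read 13.44, 13.44 and 13.43 at P0, 13.50, 13.45 and 13.43 at P7, 13.53, 13.48 and 13.42 at P15, 13.46, 13.30 and 13.46 at P21, and 13.27, 13.23 and 13.29 at P56. It moved least, by -0.17 (SE 0.06, adjusted p 0.0189) between P56 and P0, a sign that turned (0.15) with array medians set to 0. Atp5b lay 0.28 to 0.81 below the highest value of the array, and saturation is not recorded, so the size of its changes is uncertain. Its lower value at P56 than at P7 (-0.20) lost its call under that scaling (0.07) and without the first P7 array (-0.17, adjusted p 0.0533). Atp5d read 13.50, 13.47 and 13.45 at P0, 13.85, 13.79 and 13.81 at P7, 13.89, 13.81 and 13.63 at P15, 13.79, 13.70 and 13.70 at P21, and 13.21, 13.27 and 13.24 at P56. Its P56 arrays lay below those of every other age, with -0.49 (SE 0.07, adjusted p 9.17e-06) against P21, while the change from P0 (-0.23) was 0.09 and not called with array medians set to 0. Atp5d lay within 0.2 of the highest value of the array on 9 of 15 arrays, and saturation is not recorded, so the size of its differences is uncertain.

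Atp5c1, the gamma subunit of the central shaft, was highest at P7, with 0.96 (SE 0.06, adjusted p 2.63e-10) between P7 and P0 and -0.22 (SE 0.06, adjusted p 0.00553) between P56 and P7. The later value was 0.04 and not called with array medians set to 0. Atp5e, the small epsilon subunit, behaved otherwise, with 11.34 ± 0.21 at P56 and 8.78 ± 0.16 at P0 (SD, n = 3), a change of 2.56 (SE 0.11, adjusted p 4.85e-13). Its further change between P56 and P7 (0.26 (SE 0.11, adjusted p 0.0473)) lost its call when any 1 of several arrays was left out, and was 0.16 without the first P56 array.

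The c ring rotates in the membrane, and its 3 genes encode precursors of the same mature protein. Atp5g1 read 12.76, 12.66 and 12.73 at P0, 13.60, 13.58 and 13.53 at P7, 13.60, 13.57 and 13.56 at P15, 13.43, 13.42 and 13.50 at P21, and 13.40, 13.52 and 13.52 at P56. Atp5g2 read 11.98, 11.90 and 11.93 at P0, 12.60, 12.53 and 12.52 at P7, 12.58, 12.57 and 12.42 at P15, 12.46, 12.46 and 12.36 at P21, and 12.45, 12.48 and 12.54 at P56. Atp5g3 read 12.21, 12.20 and 12.08 at P0, 12.96, 12.99 and 12.92 at P7, 12.90, 12.94 and 12.81 at P15, 12.75, 12.73 and 12.90 at P21, and 12.59, 12.55 and 12.59 at P56. All 3 were called higher at P7 than at P0 (33.6% of all probe sets), by 0.85, 0.61 and 0.80. Atp5g3 alone was called lower at P56 than at P7 (-0.38 (SE 0.07, adjusted p 9.34e-05)), where 34.2% of all probe sets were. That call was lost with array medians set to 0 (-0.12). The change between P56 and P0 was larger for Atp5g1 than for Atp5g2 by 0.20 and than for Atp5g3 by 0.35, each with non-overlapping arrays and the smallest exact permutation p of 0.1 (adjusted 0.129). Atp5g1 lay 0.24 to 1.34 below the highest value of the array, and saturation is not recorded, so the size of these differences is uncertain.

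The 4 genes of the peripheral stalk, which holds the head still against the rotating ring, were called higher at P56 than at P0 by 0.67 (Atp5j, a coupling factor) to 1.40 (Atp5h, the d subunit). Of all probe sets, 40.1% were called higher in this contrast, or 61.7% with array medians set to 0. Atp5pb, the b subunit, read 11.59, 11.79 and 11.43 at P0, 12.55, 12.45 and 12.43 at P7, 12.63, 12.55 and 12.52 at P15, 12.45, 12.23 and 12.40 at P21, and 12.82, 12.68 and 12.75 at P56. Its P56 arrays were the highest, but its 2 probe sets disagreed on the later change, with 0.27 (adjusted p 0.0133) between P56 and P7 for the brighter and -0.09 (adjusted p 0.2) for the other. Atp5o, which links the stalk to the head, rose by 1.16 (SE 0.07, adjusted p 1.46e-10) by P7 and had no call after it between P7 and P56.

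The 5 small membrane subunits beside the ring, some of them involved in pairing of ATP synthases, had the largest median of the roles within complex V. Each was called higher by at least 1 at P56 than at P0, with a median of 2.63, where 11% of all probe sets were. Atp5l, the g subunit, read 9.34, 9.27 and 9.24 at P0, 11.50, 11.37 and 11.28 at P7, 11.76, 11.72 and 11.67 at P15, 11.58, 11.38 and 11.55 at P21, and 12.79, 12.71 and 12.71 at P56. Its arrays rose in 2 steps, 2.10 (SE 0.07, adjusted p 6.5e-14) between P7 and P0 and 1.23 (SE 0.07, adjusted p 3.19e-10) between P56 and P21. Its 6 probe sets gave changes of 3.45 to 3.82 between P56 and P0. Atp5k, the e subunit, read 8.62, 8.49 and 8.53 at P0, 10.35, 10.33 and 10.28 at P7, 10.50, 10.43 and 10.57 at P15, 10.17, 10.18 and 10.40 at P21, and 11.40, 11.22 and 11.11 at P56. Between P56 and P0 its change was 2.70 (SE 0.08, adjusted p 6.71e-15), and every P56 array lay above every earlier array. Atp5mpl, a small proteolipid, read 10.39, 10.41 and 10.35 at P0, 12.10, 12.10 and 12.10 at P7, 12.21, 12.28 and 12.06 at P15, 12.20, 12.21 and 12.04 at P21, and 13.06, 13.01 and 12.97 at P56. It too had its highest arrays at P56 (0.86 (SE 0.07, adjusted p 1.43e-08) against P21). Atp5j2, the f subunit, and Atp5md, a subunit also called DAPIT, changed by 1.22 and 1.20 between P56 and P0, and for Atp5md the other 2 probe sets rose after P7 (0.35 and 0.48) where the one used did not pass the test (0.07).

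Upstream windows of Atp5l and Uqcr11 are shown as small subunits with large rises by P7 and opposite changes at P56. They are given as before, with the additional motifs ERR (AAGGTCA, or TGACCTT on the other strand), bound by estrogen-related receptors, and TATA box (TATAAA, or TTTATA) in capitals. Atp5l lies at chr9:44920743-44920892, minus strand, and Uqcr11 at chr10:80406822-80406971, minus strand.
Atp5l: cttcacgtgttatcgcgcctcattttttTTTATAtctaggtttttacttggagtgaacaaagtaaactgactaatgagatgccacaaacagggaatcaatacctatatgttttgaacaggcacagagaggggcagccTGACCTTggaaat
Uqcr11: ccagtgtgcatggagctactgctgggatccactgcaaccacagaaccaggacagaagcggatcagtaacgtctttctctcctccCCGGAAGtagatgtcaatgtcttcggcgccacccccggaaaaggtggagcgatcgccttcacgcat
The window of Atp5l held an ERR match and TATA box letters on the strand opposite to the gene, and that of Uqcr11 held an ETS match.

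Set out by role, the change between P56 and P7 was -0.40 at the median over the 8 genes of complexes III and V classed as core (catalytic or matrix-side). Of these, 1 was called higher (Atp5e) and 6 lower. Over the 19 genes of the 3 complexes classed as small subunits it was 0.32, with 11 called higher and 2 lower (Uqcr11 and Cox6c). The classes are coarse. The small class holds all 9 general subunits of complex IV, among them the matrix-side Cox5a, and the core class holds the small Atp5e. The c ring and stalk genes of complex V are in neither. Of all probe sets, 25.4% were called higher and 34.2% lower in this contrast, or 55.6% and 21.8% with array medians set to 0. With array medians set to 0, the core genes had 2 higher and 4 lower at a median of -0.13, and the small subunits 17 higher and 0 lower at 0.58, beside 0.27 over all probe sets. Under quantile normalization, the core had 2 higher and 6 lower (-0.40) and the small subunits 11 higher and 2 lower (0.36). The median over all probe sets was then 0.01, and the shares called under that normalization are not given for this contrast. The roles were assigned with mean values known, and the difference between the groups was not tested. At P7 the same groups had both risen, with 7 of 8 core genes and 19 of 19 small subunits called higher than at P0, at medians of 0.55 and 1.16. In that contrast 33.6% of all probe sets were called higher.

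**Figure D5:**
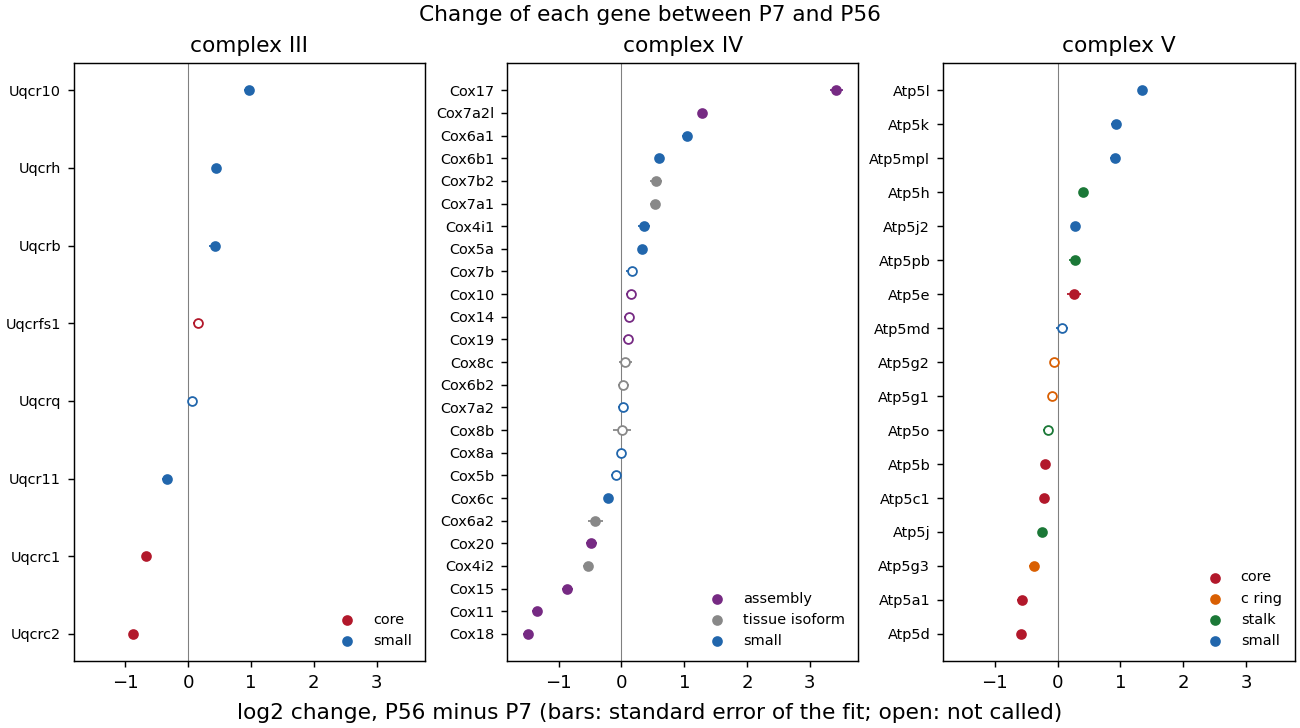
Log2 change between P56 and P7 of each of the 50 genes with its SE, in a panel per complex and coloured by role. Most genes classed as core in complexes III and V lie below 0. Most classed as small, a class that holds all general subunits of complex IV, lie above. Below 0 in this class are Cox5b (-0.09), Cox6c (-0.22) and Cox8a (-0.01) of complex IV and Uqcr11 (-0.34) of complex III. Of these classes, 6 of 8 and 2 of 19 were called lower (4 of 8 and 0 of 19 with array medians set to 0). The assembly genes spread from -1.49 (Cox18) to 3.42 (Cox17).

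Complex I, the other large nuclear-encoded complex of the chain, is given beside these values. Its 43 genes were taken by symbols that begin with Nduf, with pseudogenes left out. They therefore include any assembly factors so named, and Ndufa4, which is counted again below among the partners of complex IV. Of the 43, 42 were called higher at P7 than at P0 and 0 lower (33.6% and 28.5% of all probe sets), with a median change of 1.29. At P56 against P7, 20 were called higher and 14 lower (25.4% and 34.2% of all probe sets), at a median of 0.13. Setting array medians to 0 gave 28 higher and 8 lower (55.6% and 21.8% of all probe sets), at a median of 0.39. Complexes III, IV and V had medians of 1.58, 0.90 and 0.94 for the first contrast. These medians were not tested against each other.

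Partners of the complexes that the symbols do not cover were mostly called higher at P7 than at P0 and went both ways later. Beside their counts, 33.6% of all probe sets were called higher and 28.5% lower at P7 against P0, and 25.4% and 34.2% at P56 against P7. For lists, named genes are the called ones with the largest changes between P56 and P7. Of 7 measured partners of complex III, 6 were called higher at P7 than at P0 and Ttc19 (0.15) had no call. At P56 against P7, 1 was higher, the assembly factor Uqcc3 (1.53), and 4 were lower, among them Uqcc2 (-0.78), also an assembly factor, Cyc1 (-0.65), the cytochrome subunit that faces the intermembrane space, and Ttc19 (-0.64). The split was 3 higher and 4 lower with array medians set to 0. The cytochrome c list held 3 genes, Cycs, Cyct and Hccs, the enzyme that attaches heme to cytochrome c. Cycs (0.81) and Hccs (0.72) were called higher at P7, and Hccs was the 1 called lower at P56 than at P7 (-1.06). Array medians set to 0 gave 2 higher and 1 lower. Of the 2, Cyct lay below the lower quartile at every age and is not read. Of 15 measured assembly factors and partners of complex IV, 13 were higher and 1 lower at P7, the lower one being Coa5 (-0.21), whose call was lost with array medians set to 0 (-0.15). At P56 against P7, 6 were higher, led by Coa6 (1.17), Higd1a (0.97) and Ndufa4 (0.94), a subunit of complex IV despite its name, and 7 lower, led by Coa7 (-1.54), Tmem177 (-0.88) and Cmc2 (-0.84). There were 7 higher and 5 lower with array medians set to 0. Coa6 acts in copper delivery, as do Cox17, called higher at P56 than at P7 (3.42), and Cox11, called lower (-1.35). Cox19, also of copper handling, had no call in the deposited scaling (0.10). Of 5 measured partners of complex V, 4 were higher at P7, the largest change being that of Tmem70 (3.18), which helps to build the c ring. At P56 against P7, Tmem70 (0.31) was higher and Atpaf2 (-1.18), a chaperone of the alpha subunit, lower, and array medians set to 0 gave 2 higher and 1 lower. Shares of all probe sets under that scaling were 55.6% higher and 21.8% lower.

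Among regulators and other proteins of mitochondria, the split at P56 against P7 depended on the scaling, as it did for all probe sets (25.4% higher and 34.2% lower, or 55.6% and 21.8% with array medians set to 0). Of 11 regulators of mitochondrial biogenesis, 9 were called higher at P7 than at P0 and 0 lower (33.6% and 28.5% of all probe sets). At P56 against P7, 2 were higher, the nuclear receptor Esrra (0.75) and the coactivator Ppargc1a (0.34), and 8 were lower, led by Tfb1m (-1.56), a methyltransferase of mitochondrial ribosomal RNA, and the coactivators Ppargc1b (-1.32) and Pprc1 (-0.90). With array medians set to 0, 3 were higher and 5 lower. Of 23 other mitochondrial proteins, all 23 were called higher at P7 than at P0 (33.6% of all probe sets), with a median of 0.66, or 18 under quantile normalization (33.5%). At P56 against P7, 3 were higher, Tomm40 (0.56) and Vdac3 (0.23) of the outer membrane and the chaperonin partner Hspe1 (0.61), and 14 lower, led by Phb2 (-0.78), a scaffold of the inner membrane, Mdh2 (-0.71) and Cs (-0.70), enzymes of the citric acid cycle, at a median of -0.23. Array medians set to 0 gave 9 higher, 7 lower and a median of 0.04.

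Promoter sequence was searched for 38 of the 50 genes that had a RefSeq window of 300 bases, 250 before and 50 after the start, on both strands. The NRF1 motif was found in 8 of 38 windows (21.1%), against 5.19% of 27025 windows of all genes. It was found for Atp5c1, Atp5g2, Atp5g3, Atp5h, Atp5k, Atp5o, Cox6a1 and Uqcrc1, that is 6 of 15 in complex V, 1 of 18 in complex IV and 1 of 5 in complex III. The ETS motif was found in 15 of 38 (39.5%, against 9.93%), spread over the 3 complexes. The YY1 motif (AAGATGGCG) was found in 3 (7.89%, against 1.64%), and the ERR motif in 4 (10.5%, against 5.38%), all of them in complex V (Atp5e, Atp5g3, Atp5k and Atp5l). TATA box letters were found in 5 (13.2%, against 15.7%), and the MEF2 motif (CTA, any 4 bases, then TAG) in 1, Cox5b (2.63%, against 4.23%). Palindromic NRF1 matches, read on both strands, were counted once per window, and a match is a description of the sequence only.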

How the data were processed

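RNA bound by ribosomes tagged under the Pcp2 promoter was measured in 15 samples, 3 at each of 5 ages, which were grouped by the age in the labels. The deposited log2 signals, 1 per probe set, had been normalized by the authors. Affymetrix Power Tools appears per the submitters' processing notes. Its algorithm, its version and the log base are not stated in the sources used here, and base 2 was taken because values span 3.1471 to 14.0774. No background level or depth is given, so the number of arrays limits the precision. A signal below the lower quartile of its array (5.8634 to 6.0149) is not shown to be above background.

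The annotation (year 2016) gave 1 symbol to 20996 of 22092 probe sets, several to 91, and it did not list the other 1005, which are unnamed here. Of the 50 members, 11 have several probe sets, and probes can read near-identical pseudogenes. All probe sets were fitted together with limma 3.58.1 in R 4.3.3, using age means alone (residual degrees of freedom 10, prior 6.5). P-values were two-sided, were Benjamini-Hochberg adjusted per contrast across the whole table, and gave a call under 0.05. Errors are the SE of the fit for changes and the SD for means. The labels do not state separate animal pools for the arrays of an age, so p-values measure the spread between these arrays, which may be technical.

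The members, lists and roles were chosen with earlier results of these data known. Every member is placed by complex and role. Array values are given for the 3 most positive and 3 most negative changes between P56 and P0 per complex, for isoform pairs and for genes whose probe sets disagree in sign between P56 and P7. List genes are up to 3 called genes each way, and the contrast used for these (P56 minus P7) was picked afterwards. Promoters came from RefSeq on GRCm38.p6 and matched 38 of 50 members.

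In simulated data for P56 minus P0 (22092 probe sets), 22% of genes shifted by 0.25 were called, 64% at 0.5, 98% at 1 and 100% at 2, with 4 false calls. Only 50 probe sets were shifted by each size, whereas 40.1% were called higher and 35.3% lower in the data. The adjustment is stricter when few probe sets change, so these shares are not the recovery in the data. Alternatives were array medians set to 0, quantile normalization, a robust prior with a trend, blocking by replicate number, dropping the dimmest 50% of probe sets, 1 probe set per gene, averaging a gene's probe sets, and omitting each array. Plots used matplotlib 3.10.9 (Python 3.11.15).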

Additional observations from a re-analysis of the deposited data

How the results depend on the processing

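Between P7 and P0, the count of members called higher stayed between 44 and 47 and that called lower at 0 when each array was left out, and the sign of every complex median between P7 and P0 and between P56 and P0 held under every alternative run. With array medians set to 0, which raises all changes against P56, the counts became 20 higher (P15 against P7), 0 higher and 11 lower (P21 against P15), 10 lower (P56 against P21), 32 higher and 9 lower (P56 against P7) and 3 lower (P56 against P0). The medians of complexes III, IV and V were then 1.64, 0.96 and 1.00 (P7 against P0), 0.37, 0.32 and 0.21 (P56 against P7, with the sign of complex V turned) and 2.13, 1.18 and 1.32 (P56 against P0). The sign turned under it for P56 against P7 in Cox5b (0.18), Cox6c (0.05), Cox8a (0.25), Atp5b (0.07), Atp5c1 (0.04), Atp5g1 (0.17), Atp5g2 (0.21), Atp5j (0.02) and Atp5o (0.10), and for P56 against P0 in Cox15 (0.26), Cox18 (0.18), Atp5b (0.15) and Atp5d (0.09). Quantile normalization gave medians of 1.44, 0.71 and 0.78 (P7 against P0), 1.72, 0.95 and 0.87 (P56 against P0), and 0.21 for complex III and 0.0018 for complex V (P56 against P7), with 2 members higher at P21 than at P15. It turned the sign of Cox8b (-0.03), Cox8c (-0.0037) and Atp5g2 (0.0018) for P56 against P7 and of Cox6c (-0.01) and Cox15 (0.10) for P56 against P0, none of them called. Removing the dimmest 50% of probe sets gave 2 higher and 11 lower (P21 against P15) and a complex IV median of 0.93 (P56 against P0, 47 members left). Averaging a gene's probe sets gave 0.91 for complex V (P56 against P0) and 0.09 for Cox7b minus Cox7b2, with the sign turned, a difference between signals that is not read as one between genes because Cox7b2 is not shown to be above background. A trended and robust prior gave 7 lower (P15 against P7) and 2 higher and 12 lower (P21 against P15). The cause of these shifts was not tested.

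Leaving out each array gave 7 to 12 higher and 4 to 6 lower (P15 against P7), 0 to 2 and 3 to 8 (P21 against P15), 20 to 21 and 14 to 17 (P56 against P21), 17 to 19 and 15 to 17 (P56 against P7), 39 to 40 and 5 to 6 (P56 against P0) and 48 to 49 members differing between ages. Medians of complexes III, IV and V ran over 1.55 to 1.62, 0.87 to 0.92 and 0.92 to 0.95 (P7 against P0), 0.08 to 0.13, 0.04 to 0.13 and -0.08 to -0.03 (P56 against P7) and 1.77 to 1.82, 0.79 to 0.90 and 0.95 to 1.02 (P56 against P0). The pair differences between P56 and P0 ran over -0.28 to 0.01 for Cox7b minus Cox7b2 (with the same limit) and 0.08 to 0.51 for Cox8a minus Cox8b, and between P56 and P7 Cox8a minus Cox8b ran over -0.22 to 0.21. Single genes near 0 turned sign with 1 array left out, over -0.15 to 0.05 (Cox15), -0.05 to 0.10 (Cox8c) and -0.01 to 0.40 (Cox8b) for P56 against P0, and over -0.03 to 0.13 (Cox8c), -0.01 to 0.05 (Cox6b2), -0.22 to 0.18 (Cox8b), -0.04 to 0.01 (Cox8a) and -0.0014 to 0.06 (Cox7a2) for P56 against P7. The call of Atp5a1 between P56 and P0 (0.18) was lost without P0 array 1 or 3 or P56 array 1 or 3 (as low as 0.12). The labels do not say whether arrays with the same replicate number belong together. Of 30 same-numbered pairs, 5 had a correlation above 0.1 between deviations from the age means (range -0.3148 to 0.453). Their median was -0.003, beside 0.00215 for other pairs. With 3 arrays an age, these correlations cannot exclude a pairing. A replicate block gave 45 members higher (P7 against P0) and 40 higher and 5 lower (P56 against P0).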
